A study of Drosophila melanogaster with 6 samples.

Results

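*Obp99a*, *Obp99b* and *Obp99d* are odorant-binding protein genes of chromosome 3R. They were found by symbol and FlyBase identifier in the deposited listing of genes that changed 4 hr after penetrating traumatic brain injury (PTBI), and they are 3 of the 367 genes listed. The study asked which genes respond early to injury of the adult central brain. Bulk RNA-Seq was run on whole heads of adult male *Drosophila melanogaster*. It compared 3 samples from 4 hr after PTBI with 3 from uninjured males, the controls, which the paper describes as age-matched. Each sample is labelled a biological replicate and held a pool of about 100 to 120 heads from flies collected within 6 hr of eclosion. All 6 samples came from the same cross of yw flies to a w stock with UAS-mCD8-GFP and OK107-GAL4. This driver labels mushroom body neurons with membrane GFP, and the controls carry the transgenes too. PTBI flies were anaesthetized with CO2 and a sterilized needle was pushed through the head capsule into both hemispheres. Whether the controls were anaesthetized is not stated in the sources used here.

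Odorant-binding proteins are small secreted proteins that carry hydrophobic molecules. In the antenna they fill the fluid around olfactory neurons, but members of the family are also made outside sense organs, the fat body (the fly's storage and secretory tissue) among them. *Obp99b*, also named *tsx*, is known for a level that differs between the sexes in the fat cells of the head. No role in brain injury is assumed here for any of the 3 genes.

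The 3 genes changed in opposite directions. *Obp99d* rose 4.20-fold after PTBI, whereas *Obp99b* fell 2.84-fold and *Obp99a* fell 3.97-fold, as ratios of mean RPKM, the read number divided by gene length and library size. Means below are given with their SD over the 3 samples of a group. In every control sample *Obp99b* was the most abundant of the 3 and *Obp99d* the next. In every PTBI sample *Obp99d* was above *Obp99b*, although in PTBI replicate 2 by no more than counting error. *Obp99a* was the lowest in all 6 samples and close to the limit of detection.

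The depth behind these values was read from the RPKM themselves. Multiplied by the annotated exon length, the values of 357 genes came out as whole read numbers in every sample (tolerance 0.02 reads) for library sizes between 24.3 and 36.2 M reads. The listing is limited to genes past the authors' thresholds (2-fold, adjusted p of 0.05), 259 of them higher and 108 lower after PTBI. A gene outside it has no value here. Markers fixed for neurons, photoreceptors, muscle, haemocytes and antennal support cells were all outside it, so the head label could not be checked against them.

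*Obp99d* (FBgn0039684) is a gene of 1 exon and 137 codons at chr3R:29714505-29715004 on the plus strand (BDGP6). Its level was 45.1, 48.0 and 80.7 RPKM in PTBI replicates 1, 2 and 3, and 14.7, 13.6 and 13.1 RPKM in control replicates 1, 2 and 3. The groups did not overlap, and the lowest PTBI sample was 3.07-fold above the highest control. The group means were 13.8 ± 0.820 RPKM for controls and 57.9 ± 19.8 RPKM for PTBI (SD, n = 3). These values rest on 584 to 1419 reads per sample after PTBI and 174 to 245 in controls. The controls were close together, with a coefficient of variation of 5.95% where counting alone gives 6.93%. The PTBI samples were spread by 34.1% where counting gives 3.60%, mostly because replicate 3 was high. Without that replicate *Obp99d* was 3.38-fold higher.

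*Obp99b* (FBgn0039685) has 149 codons and lies at chr3R:29716254-29716896 on the minus strand. It was at 33.0, 46.0 and 41.5 RPKM in PTBI replicates 1, 2 and 3, on 591, 665 and 866 reads. In control replicates 1, 2 and 3 it was at 85.0, 106 and 151 RPKM, on 1504, 2279 and 2375 reads. The groups did not overlap, and the lowest control was 1.85-fold above the highest PTBI sample. The group means were 114 ± 33.5 RPKM for controls and 40.1 ± 6.62 RPKM for PTBI (SD, n = 3). Here the controls were the more variable group, at 29.4% against 2.25% from counting, with control replicate 3 the highest. Without that replicate the fall was 2.38-fold. In bulk heads, fewer cells that make a transcript and less of it per cell cannot be told apart.

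*Obp99a* (FBgn0039678) has 142 codons and lies at chr3R:29671657-29672334 on the plus strand. It was at 0.163, 0.337 and 0.606 RPKM in PTBI replicates 1, 2 and 3, on 3, 5 and 13 reads. In control replicates 1, 2 and 3 it was at 1.21, 1.27 and 1.91 RPKM, on 22, 28 and 31 reads. The groups did not overlap, although the highest PTBI sample and the lowest control were only 2.00-fold apart. The group means were 1.46 ± 0.391 RPKM for controls and 0.369 ± 0.223 RPKM for PTBI (SD, n = 3). Over each group the reads came to 21 after PTBI and 81 in controls, a 3.74-fold fall relative to library size with a 95% exact counting interval of 2.29 to 6.37. That interval covers counting error only. Counting error from each PTBI sample's own reads came to 45.1% as a root mean square, and the PTBI samples were spread by 60.6%. The sample with 3 reads raises the first value, so this comparison is rough.

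**Figure D1:**
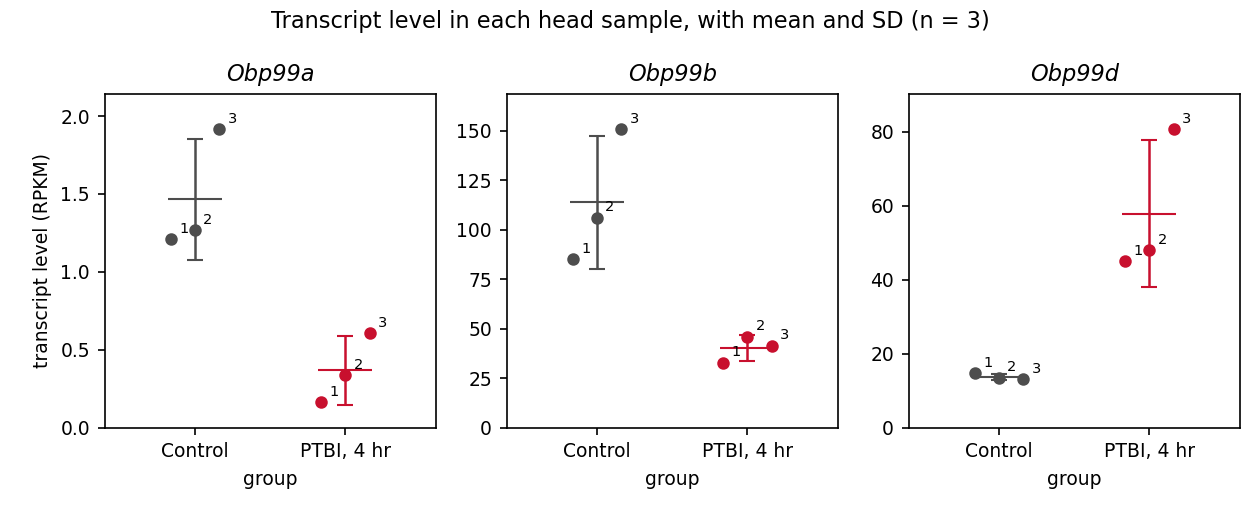
RPKM of *Obp99a*, *Obp99b* and *Obp99d* (vertical axis, linear from 0, a scale for each gene) in 3 control and 3 PTBI samples, with replicate numbers beside the points and the group mean and SD as bars. *Obp99d* lies between 45.1 and 80.7 RPKM after PTBI against at most 14.7 in controls, while *Obp99b* and *Obp99a* lie below their controls in all 3 PTBI samples.

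With 3 samples against 3, an exact two-sided permutation test cannot go below p = 0.1, and all 3 genes reached this value. Limma on log2(RPKM + 1) over all listed genes gave a log2 fold change of 1.95 for *Obp99d* (standard error 0.22, 95% interval 1.41 to 2.48, adjusted p = 0.00020). For *Obp99b* it was -1.46 (standard error 0.23, 95% interval -2.00 to -0.91, adjusted p = 0.00086 in limma). For *Obp99a* it was -0.85 (standard error 0.17, 95% interval -1.25 to -0.45, adjusted p = 0.0022 in limma), on a scale where the added 1 compresses the change of a gene this low. With a pseudocount of 0.1 the log2 fold change of *Obp99a* was -1.83, and voom on its whole reads gave -2.01.

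These tests carry no independent weight. The genes were listed for their change between these same samples, and limma called 354 of the 367 listed genes, 96.5%. It called 67.6% of them higher and 28.9% lower, and the groups did not overlap for 100% of them, so 3 of 3 called members is close to the background of the listing. When the median of the listed genes, which was 0.66 higher after PTBI on the log2 scale, was subtracted from each sample, limma called 161 genes higher and 126 lower instead of 248 and 106. The members kept their directions in that fit, with log2 fold changes of 1.29 for *Obp99d*, -2.11 for *Obp99b* and -1.51 for *Obp99a*. Subtracting a median that was higher after PTBI deepens any fall, so *Obp99b* and *Obp99a* could not have lost their direction. That median is of a listing in which 259 of 367 genes were listed as higher.

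Within the listing, *Obp99d* ranked 92 of 259 by fold among the genes listed as higher, whose median fold was 3.13. *Obp99b* ranked 33 and *Obp99a* 14 of 108 among the genes listed as lower, whose median fold was 2.49. By mean RPKM, *Obp99b* stood at rank 32 of 367 in controls and 104 after PTBI, and *Obp99d* moved from rank 132 to rank 81. *Obp99a* went from rank 240 to rank 332.

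**Figure D2:**
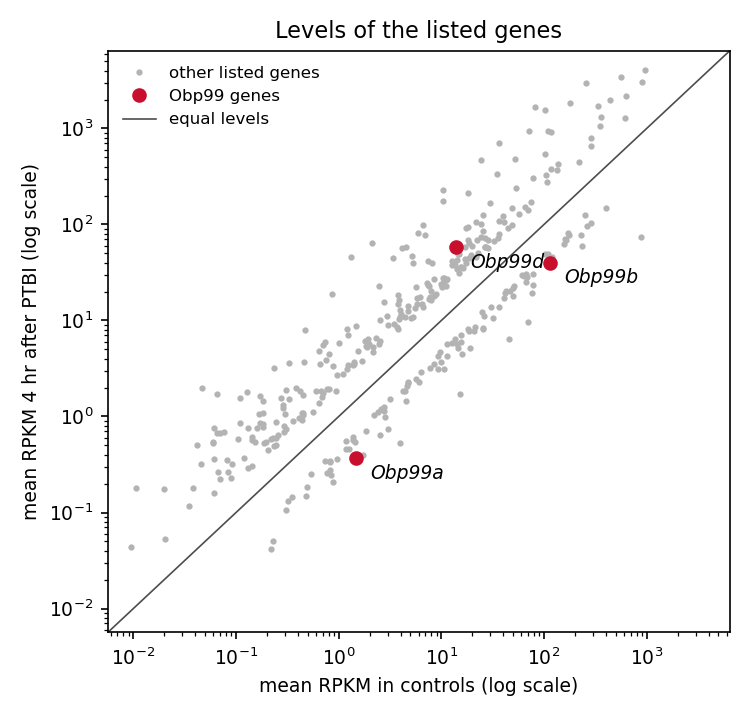
Mean RPKM of the listed genes in controls (horizontal, log scale) and 4 hr after PTBI (vertical, log scale), each point 1 of 365 genes, with the Obp99 genes in red and a line of equal levels; 2 genes at 0 in the PTBI samples are not drawn. *Obp99d* lies above the line and *Obp99b* below it, at 57.9 and 40.1 RPKM after PTBI, and *Obp99a* lies below it near the low end. The gap along the line reflects the 2-fold limit of the listing.

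Ratios of members within a sample are free of differences in library size. *Obp99d* was at 0.173, 0.128 and 0.0870 of the level of *Obp99b* in control replicates 1, 2 and 3. After PTBI it was at 1.37, 1.04 and 1.95 times that level in replicates 1, 2 and 3. By RPKM the order of the pair thus turned in all 3 PTBI samples. In replicate 2 the levels were within counting error of each other, with 95% intervals of 44.2 to 52.0 RPKM for *Obp99d* and 42.6 to 49.6 RPKM for *Obp99b*. There *Obp99b*, the longer transcript, had the more reads, 665 against 584. The mean log2 ratio was 0.49 ± 0.45 after PTBI and -3.01 ± 0.50 in controls (SD, n = 3), a shift of 3.50. The log2 ratio of *Obp99d* to *Obp99a* shifted by 4.18, from 3.26 ± 0.43 to 7.44 ± 0.58 (SD, n = 3). Both shifts reached the smallest p of the exact permutation test, 0.1, or 0.15 adjusted over the 3 pairs compared. Each of these ratios divides a gene listed as higher by a gene listed as lower. In every PTBI sample the former lay above all of its controls and the latter below all of its controls. Such a ratio has to separate PTBI from control samples, so this p followed from the choice of genes and carries no independent weight.

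The log2 ratio of *Obp99b* to *Obp99a*, which both fell, was 6.27 ± 0.13 in controls and 6.95 ± 0.79 after PTBI (SD, n = 3), a shift of 0.68 (exact permutation p = 0.4, adjusted 0.4). The shift was 0.32 without PTBI replicate 1 and 1.10 without PTBI replicate 3. Since 3 samples against 3 cannot pass 0.05, this test could not have called any difference. *Obp99b* was 70.2, 83.6 and 78.7 times as abundant as *Obp99a* in control replicates 1, 2 and 3. After PTBI it was 202, 137 and 68.4 times as abundant in replicates 1, 2 and 3. The values after PTBI rest on 3, 5 and 13 reads of *Obp99a*.

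**Figure D3:**
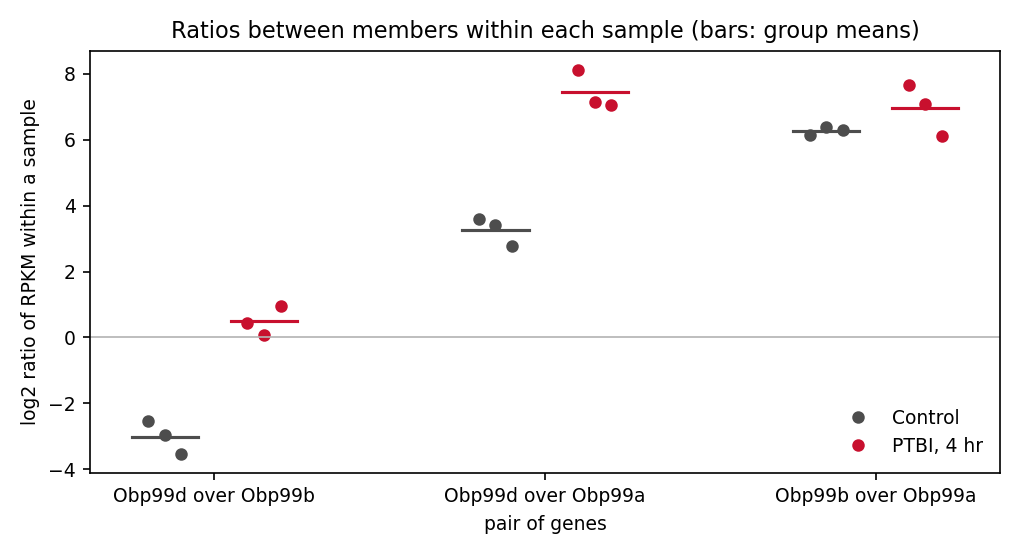
The log2 ratio of RPKM between pairs of members (vertical axis) in each of the 3 control (grey) and 3 PTBI (red) samples, with bars at the group means. The ratio of *Obp99d* to *Obp99b* moves from below 0 in the controls to above 0 after PTBI, while the ratio of *Obp99b* to *Obp99a* overlaps between groups.

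Since 1 member rose and the others fell, their sum changed less than any of them. It came to 129 ± 33.2 RPKM in controls against 98.4 ± 22.6 RPKM after PTBI (SD, n = 3), a ratio of 0.762 (exact permutation p = 0.3). The samples of the groups overlapped in this sum, from 78.2 to 123 RPKM after PTBI and from 101 to 166 in controls. Between samples of the same number, an alternative added after seeing the data, the sum was lower after PTBI in all 3 pairs, at 0.775, 0.780 and 0.741 of the control (exact sign-flip permutation p = 0.25, the smallest that 3 pairs allow). Of the sum, *Obp99d* made up 11.2 ± 3.33% in controls and 58.1 ± 7.44% after PTBI. *Obp99b* went from 87.6 ± 3.35% to 41.6 ± 7.51%, and *Obp99a* from 1.14 ± 0.0771% to 0.353 ± 0.143% (SD, n = 3).

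The opposite changes of *Obp99d* and *Obp99b* came from near neighbours. The genes are 1249 bp apart with their 3′ ends toward each other, and *Dup99B*, a peptide gene of the male ejaculatory duct, lies between them. *Obp99a* is 42170 bp from *Obp99d*. From the start of *Obp99a* to the end of *Obp99b* the annotation has 12 genes over 45.2 kb, of which the 3 members were listed and 9 were not. *Obp99c*, the other family member of this stretch, and *Dup99B* were among those not listed. No annotated gene overlaps any of the 3 members, so their reads have no overlapping gene to be shared with. Their sequence similarity to each other was not analysed here. Among the 360 listed genes with a position in the annotation, the nearest other genes were far off. *CR31427* (listed as *CG31427*), 431 kb away on the side of *Obp99a*, rose from 0.204 ± 0.0347 to 0.448 ± 0.0540 RPKM, and the antimicrobial peptide gene *CecA1*, 494 kb away on the side of *Obp99b*, rose from 18.3 ± 8.25 to 211 ± 99.2 RPKM (SD, n = 3).

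**Figure D4:**
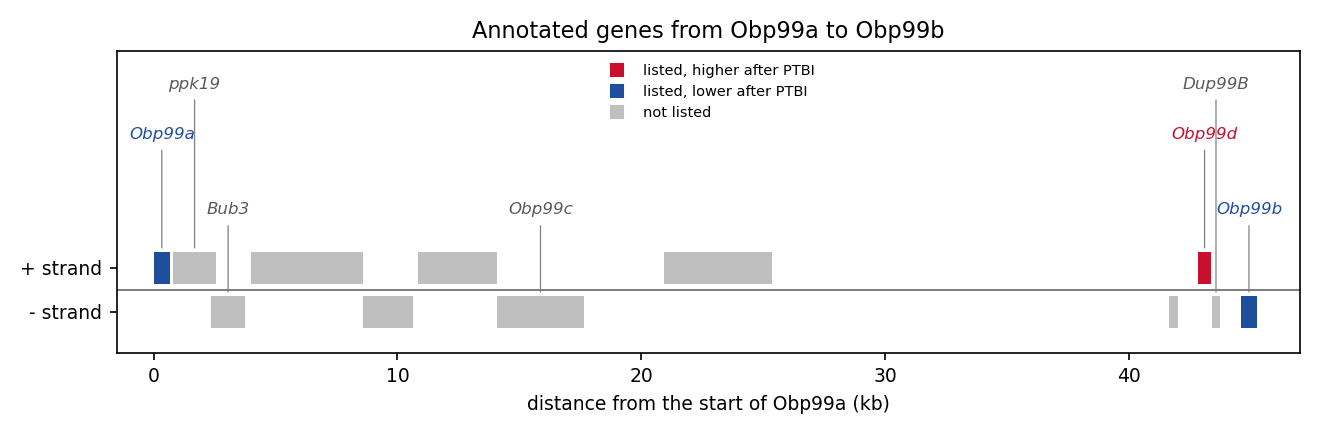
The 12 annotated genes from *Obp99a* to *Obp99b*, drawn to scale by distance from the start of *Obp99a* in kb (horizontal), with plus-strand genes above the line and minus-strand genes below. Genes listed as higher are red, those listed as lower are blue and those not listed are grey. *Obp99d* and *Obp99b* lie 1249 bp apart and changed in opposite directions, and *Obp99c* was not listed.

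Across the whole family of 52 annotated odorant-binding protein genes, the listing held 1 as higher and 2 as lower, which are the 3 genes described here. The other 49 were not listed, among them *lush*, *Obp83a* and *Obp83b*, which are abundant in the antenna. Of 186 odorant, ionotropic and gustatory receptor genes none was listed. Of 40 other genes for carriers of hydrophobic ligands and related proteins, 2 were in the listing and both rose. For comparison with these counts, 70.6% of the listed genes were listed as higher and 29.4% as lower. Of all annotated protein-coding genes (expressed in heads or not), 1.69% were listed as higher and 0.708% as lower. *Phk-3*, which encodes a chemosensory-type secreted protein, rose from 17.4 ± 2.73 to 39.4 ± 1.19 RPKM (n = 3; limma log2 fold change 1.15, adjusted p = 0.00016). *CheB53b* was near the limit of detection, with 0.144 ± 0.148 RPKM in controls against 0.605 ± 0.122 RPKM after PTBI. A gene outside the listing may still have changed without passing both thresholds.

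*Obp99b* belongs to a small set of genes known to differ between the sexes in the head. Of 8 such genes other than *Obp99b*, 3 were listed, all as lower after PTBI. For comparison, 29.4% of the listed genes, and 0.708% of all annotated protein-coding genes (expressed in heads or not), were listed as lower. The genes *to*, *Yp1*, *Yp2*, *Yp3* and *dsx* were not listed. No test of the list was run. It was chosen with earlier results of these data known, so its count carries no independent weight. *fit*, a female-biased gene of head fat cells, was at 9.86, 11.2 and 24.4 RPKM in control replicates 1, 2 and 3 and at 0.624, 0.851 and 3.64 RPKM in PTBI replicates 1, 2 and 3, an 8.90-fold lower mean. *sxe2* (listed as *CG4979*) fell 2.24-fold, from 158 ± 22.0 to 70.7 ± 11.9 RPKM (SD, n = 3). *Cyp4d21*, a cytochrome P450 gene also named *sxe1*, fell 2.16-fold, from 66.4 ± 17.2 to 30.8 ± 10.5 RPKM. Control replicate 3 was the highest and control replicate 1 the lowest of the controls for these 3 genes and *Obp99b*. All samples were male, so no sex difference was measured.

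**Figure D5:**
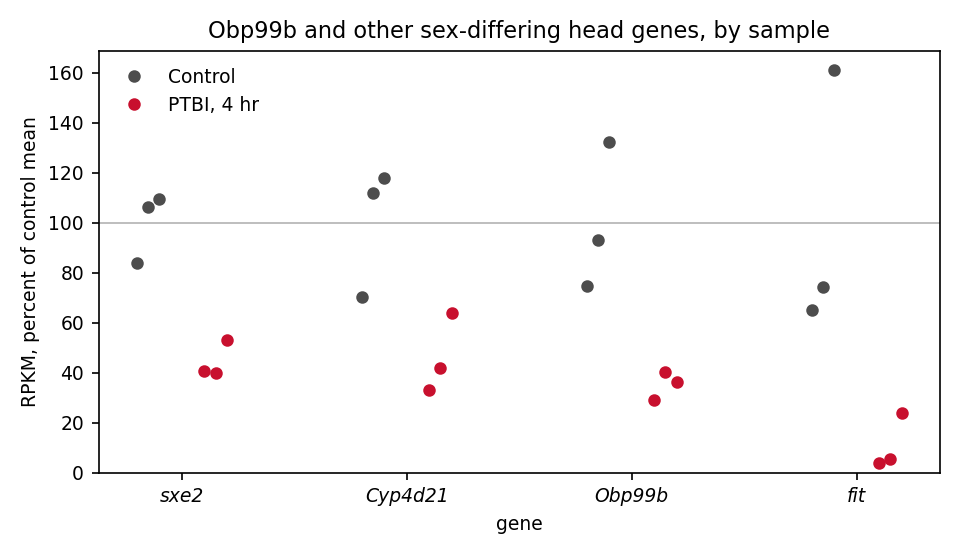
RPKM of *Obp99b*, *fit*, *Cyp4d21* and *sxe2* in each sample as a percentage of the control mean of that gene (vertical axis, from 0), with 3 controls in grey and 3 PTBI samples in red. In all 4 genes the PTBI samples lie below the controls, from 28.9 to 40.4% of the control mean for *Obp99b* and from 4.11 to 24.0% for *fit*. The groups did not overlap for 100% of the listed genes, so this separation is not particular to these 4.

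The listed fat body markers moved in the same direction as *Obp99b* and *Obp99a*. Of 15 such markers, 6 were listed, all as lower (*Lsp2*, *Lsp1beta*, *Lsp1alpha*, *apolpp*, *regucalcin* and *tobi*), by 2.39-fold to 11.8-fold, against the same 29.4% of listed and 0.708% of annotated protein-coding genes listed as lower. The sum of these 6 was 1292 to 1953 RPKM in the controls and 205 to 400 RPKM after PTBI, and none was at 0 in any group mean. The markers *Lsp1gamma*, *Fbp1*, *Fbp2*, *apoltp*, *Mtp*, *FASN1*, *Lsd-1*, *Cyp4g1* and *AkhR* were not listed. The paper describes the fat body as a main source of antimicrobial peptides after injury and infection, and their genes were not among these markers. The paper's Discussion names *regucalcin* among JAK/STAT pathway components that it describes as upregulated. In the listing it is lower, from 165 ± 11.8 RPKM in controls to 69.2 ± 4.21 RPKM after PTBI (SD, n = 3). Of 9 glial markers, 2 were listed as lower, *wrapper* and *Mdr65*, with a sum of 58.9 to 64.8 RPKM in controls and 20.9 to 22.8 RPKM after PTBI. *FASN2*, 1 of 4 oenocyte markers, fell 2.88-fold. The marker lists were chosen with earlier results of these data known, so their counts carry no independent weight. The part of these cell types in the falls of *Obp99b* and *Obp99a* was not tested.

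Likeness to each member was ranked over the 367 listed genes by Pearson's r of log2(RPKM + 1) over the 6 samples. These points share libraries and a group difference for which all the genes were listed, so the values are a description. *Obp99a* was nearest to *CG31075* (r = 0.994), *fit* (r = 0.994) and *tobi* (r = 0.989), a sugar-responsive glycosidase gene of the fat body, with 70.2 ± 18.6 RPKM in controls against 9.69 ± 5.91 RPKM after PTBI. *Obp99b* was nearest to *Lsp1beta* (r = 0.985), a larval storage protein gene with 45.9 ± 19.8 RPKM in controls against 6.42 ± 0.752 RPKM after PTBI, then *Argl* (listed as *CG9510*, r = 0.977) and *Cyp9h1* (r = 0.975). *Obp99d* was nearest to *CG30287* (r = 0.998), *Bbd* (listed as *CG18067*, r = 0.995) and the glutathione S-transferase gene *GstD5* (r = 0.994). *Bbd* was far more abundant than *Obp99d*, with 361 ± 25.0 RPKM in controls against 1327 ± 324 RPKM after PTBI (SD, n = 3). Between members, r was 0.97 for *Obp99a* and *Obp99b*, -0.82 for *Obp99a* and *Obp99d*, and -0.90 for *Obp99b* and *Obp99d*.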

How the data were processed

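The authors mapped single-end 50 bp reads of strand-specific mRNA libraries with Subjunc of Subread to the FlyBase genome and annotation (release: not given in the sources used here). They then counted reads for each gene and compared groups with voom and limma. The deposited RPKM per sample are the authors' values. The listing also holds their mean expression, fold change, p and adjusted p, which were not used.

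Of 367 identifiers, 360 were found in Ensembl 115 (BDGP6). Coordinates are from that annotation, and its exon lengths gave whole reads. Matching used FlyBase identifiers, because older names in RefSeq call *Obp99b* "Obp99d" and *Obp99d* "Obp99c". The main test was limma (3.58.1, R 4.3.3) on log2(RPKM + 1), with all 6 samples, no block, and p-values adjusted by Benjamini-Hochberg across the 367 genes. The same fit was also run on simulated reads in which part of the genes were left unchanged. That setting differs from this listing, whose genes were all listed for a change, so it does not bear on the calls here. Same-numbered PTBI and control samples deviated together over the listed genes (correlations 0.24, 0.12 and 0.16). Between samples of different number the correlations ran from -0.21 to 0.02. Deviations from a group mean cancel out within the group, so these correlations are not independent of those of same-numbered samples. The labels give no shared batch or day. A limma fit with the replicate number as a block is among the alternatives, with pseudocounts of 0.1 and 5, a filter at a mean RPKM of 1, centring, voom on whole reads, group medians and each sample left out. Permutation tests and intervals used Python 3.11.15 and scipy 1.17.1.

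Named genes were the members, listed members of the lists (up to 4 by fold), the 3 listed genes most like each member and the nearest listed genes, apart from the fat body and glial markers named as a group. The members and lists were chosen with earlier results of these data known. Replicates are those of the labels. Where they are pools from 1 stock, p-values measure the spread between these pools. Intervals cover counting error only where said so. No sequence of the genes is shown.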

Additional observations from a re-analysis of the deposited data

How the results depend on the processing

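All 3 genes kept their direction and stayed past an adjusted p of 0.05 in limma under each alternative that gave a value, 12 for *Obp99b* and *Obp99d* and 11 for *Obp99a*, whose mean RPKM under 1 removed it from the filtered fit. The largest adjusted p over these was 0.0012 for *Obp99d*, 0.0030 for *Obp99b* and 0.0089 for *Obp99a*. Most listed genes were also called under the alternatives. Limma called 357 of 357 with voom, 351 of 367 with the replicate block and 337 to 350 of 367 with a sample left out. With centring it called 287 of 367. The genes were listed for their change in these same samples, so the calls of the members carry no independent weight. With each sample left out in turn, the limma log2 fold change ran from 1.69 to 2.10 for *Obp99d*, from -1.64 to -1.24 for *Obp99b* and from -0.97 to -0.72 for *Obp99a*, and the fold of *Obp99a* from 3.11 to 5.86 (the highest without PTBI replicate 3). With the replicate block, limma gave adjusted p-values of 0.0012 for *Obp99d*, 0.0011 for *Obp99b* and 0.0010 for *Obp99a*, so it changed no call of the members. The shift in the log2 ratio of *Obp99b* to *Obp99a* ran from 0.32 to 1.10 with each sample left out. With a pseudocount of 5, which shrinks low values most, the log2 fold change of *Obp99a* was -0.27. Centring on sample medians took the listed genes called higher from 248 to 161. The depth limits *Obp99a* most, at 3 to 13 reads per PTBI sample.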
